A study of Homo sapiens with 12 samples.

Results

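The mRNAs of the 5 NF-κB subunits and of 5 IκB family proteins were followed in human proximal tubular cells. The 10 genes are the subunit genes NFKB1, NFKB2, REL, RELA and RELB, the classical inhibitor genes NFKBIA, NFKBIB and NFKBIE, and the nuclear IκB genes NFKBIZ and BCL3. They were taken by gene name from the array annotation, without regard to their values. They held 12 of the 34127 probes on the array, with 2 probes each for RELA and NFKBIB and 1 for every other gene. Every one of the 12 probes exceeded background clearly on each of the 12 arrays and none was saturated, so all 10 genes were among the 15717 genes tested.

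Each array held RNA from 1 culture, and each of the 6 groups had 2 arrays, which the study describes as biological duplicates. HK-2 is a human proximal tubule line immortalized with papillomavirus genes, and RPTEC/TERT1 is one immortalized with telomerase. Both were grown at a normal glucose concentration and kept without serum and supplements for 24 h before treatment. For each line label there was a control group, a group given interleukin-1β (IL-1β, 10 ng/mL) and a group given empagliflozin (Empa, 500 nM), an inhibitor of the glucose transporter SGLT2, each for 24 h. The study asked how these treatments change gene expression in tubular cells, and no array of both agents together was analysed here.

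NF-κB is a family of dimeric transcription factors that carry inflammatory signals to the nucleus. In resting cells IκB proteins hold the dimers in the cytoplasm. IL-1β activates the IκB kinase complex, the classical IκB proteins are degraded and the dimers enter the nucleus, where the genes of several subunits and inhibitors are themselves known targets. The precursors p105 (from NFKB1) and p100 (from NFKB2) also act as IκB proteins until they are processed to p50 and p52. The array measures mRNA, and so neither the degradation of an IκB protein nor the movement of a dimer.

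The promoters of these genes are described first, for matches to the sequence that NF-κB binds. RefSeq promoters (GRCh38.p14, 250 bases before to 50 bases after a transcription start) were held for 8 of the 10 genes, with 14 starts in all. RELB and NFKBIE had no entry. A κB decamer, the 10-base consensus site of NF-κB, was searched on both strands. It was found at 9 of the 14 starts and for 7 of the 8 genes, RELA being the gene without one. Of all 35116 promoters of this length 5.91% held it, and 7.09% of 27305 genes held it at any of their starts. A match is a string of letters and not a measured binding site. The 250 bases before the start are given for 3 genes that passed the IL-1β test described further on, 5′ to 3′ on the strand of the gene, with the decamer in capitals. The intervals are chr14:35404750-35404999 (minus strand) for NFKBIA, chr4:102501109-102501358 (plus strand) for NFKB1 and chr3:101827740-101827989 (plus strand) for NFKBIZ.
NFKBIA: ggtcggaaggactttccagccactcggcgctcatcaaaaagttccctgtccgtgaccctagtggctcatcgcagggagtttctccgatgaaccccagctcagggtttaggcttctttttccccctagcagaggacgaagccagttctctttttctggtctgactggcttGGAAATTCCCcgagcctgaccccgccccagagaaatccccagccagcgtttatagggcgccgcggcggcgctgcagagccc
NFKB1: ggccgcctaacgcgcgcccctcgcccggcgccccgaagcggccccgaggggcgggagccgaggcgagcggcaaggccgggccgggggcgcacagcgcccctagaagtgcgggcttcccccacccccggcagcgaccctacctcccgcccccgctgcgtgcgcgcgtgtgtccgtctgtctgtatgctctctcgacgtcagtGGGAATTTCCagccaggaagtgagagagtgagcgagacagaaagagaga
NFKBIZ: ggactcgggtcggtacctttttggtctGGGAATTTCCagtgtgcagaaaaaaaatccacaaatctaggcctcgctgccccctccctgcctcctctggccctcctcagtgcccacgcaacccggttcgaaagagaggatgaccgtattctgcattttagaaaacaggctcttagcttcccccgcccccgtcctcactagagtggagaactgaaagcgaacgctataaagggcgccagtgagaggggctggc
The decamer began at position -81 in NFKBIA, -49 in NFKB1 and -223 in NFKBIZ, counted from the start of the printed promoter as position 0. NFKB1 and NFKBIZ each had another start further downstream, which is not printed. That of NFKB1 held no decamer, and that of NFKBIZ held 1, at -239.

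Shorter windows of 30 bases, the decamer with 10 bases on each side, are given for some of the matches in 3 other genes. They are chr2:60881517-60881546 for REL, chr10:102394461-102394490 and chr10:102395674-102395703 for NFKB2, and chr19:44748700-44748729 for BCL3, all on the plus strand.
REL: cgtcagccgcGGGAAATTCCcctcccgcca
NFKB2, upstream window: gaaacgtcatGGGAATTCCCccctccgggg
NFKB2, downstream window: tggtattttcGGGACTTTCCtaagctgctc
BCL3: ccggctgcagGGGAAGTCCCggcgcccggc
The REL decamer began at -47 and the NFKB2 decamers shown at -107 and -21, while that of BCL3 lay 2 bases after the start base. The NFKB2 window first in the list lies at the middle one of its 3 starts, which held 3 overlapping or neighbouring matches, and the other at the start furthest downstream, which held 2. In REL and NFKBIB a match on each strand overlapped by all but 1 base.

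**Figure D1:**
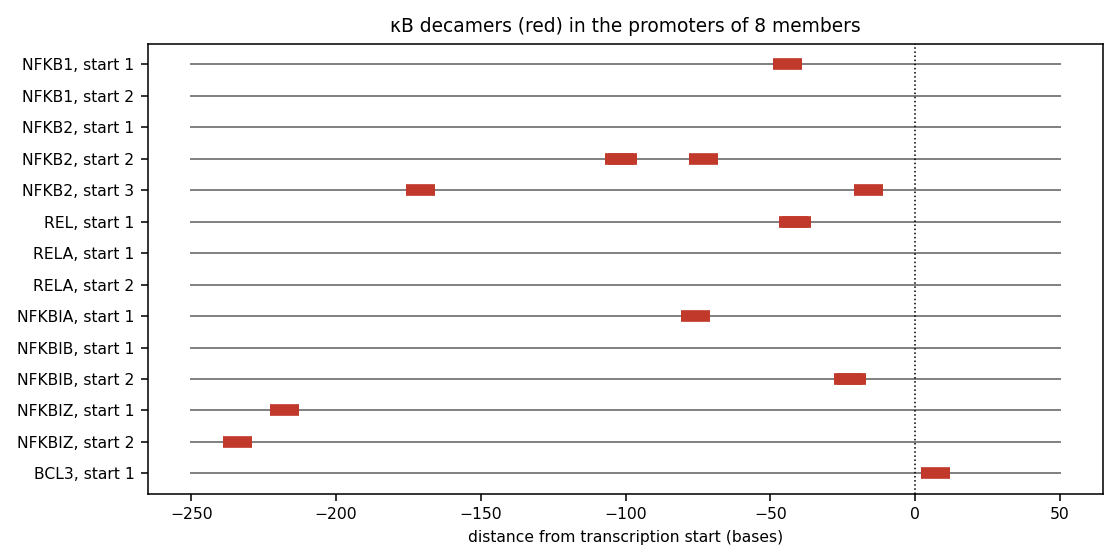
Positions of κB decamers (red bars) in the promoters of the 8 genes with an entry, by distance from the transcription start in bases. Each grey line is 1 start, overlapping matches merge into 1 bar, and 9 of the 14 starts hold a match.

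Signals were background-subtracted processed intensities, and the level of a gene was log2 of the signal over the 75th percentile of its array, so that 0 is a signal at that percentile. The level of one gene is not compared with that of another, because probes differ in how strongly they hybridize. By the array annotation (hg19), the probe of NFKBIA lies at chr14:35870788-35870847 on the minus strand, and on the plus strand lie those of NFKBIZ at chr3:101578904-101578963, NFKB1 at chr4:103537856-103537915 and BCL3 at chr19:45263191-45263250. No hg19 gene models were used here, so the exon or UTR that holds a probe is not given. All differences are log2 levels of a treated array minus the control array of the same slide, and each of the 4 slides carried 1 control, 1 IL-1β and 1 Empa array of 1 line label and replicate number.

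The arrays did not group by their line labels. Over 15324 probes, arrays of the same treatment correlated at r = 0.852 to 0.880 when they shared a line label and at 0.835 to 0.889 when they shared a replicate number. They correlated at 0.960 to 0.984 when they shared neither. HK-2 replicate 1 was therefore closest to RPTEC/TERT1 replicate 2, and HK-2 replicate 2 to RPTEC/TERT1 replicate 1, for each of the 3 treatments. Replicate 1 slides were scanned on 1 day and replicate 2 slides on another. The slides of HK-2 replicate 1 and of RPTEC/TERT1 replicate 2 are called the first pair of slides below and the remaining slides the second pair, a name for this likeness that enters no test. Values of a pair give the HK-2 slide before the RPTEC/TERT1 slide. The cell line behind an array is given as its label only. Whether labels of some slides were exchanged was not tested, and if they were, each line label would hold arrays of both lines. Sets of 4 values follow the order HK-2 replicates 1 and 2, then RPTEC/TERT1 replicates 1 and 2. Of 13 proximal tubule marker genes 9 were tested, 7 to 9 of them were above background on each array, and their summed level was 12.4 to 53.7 times the 75th percentile in control arrays, 5.70 to 20.1 with IL-1β and 8.47 to 78.8 with Empa. The control sums were 53.5 and 53.7 in the first pair against 12.4 and 15.5 in the second. LRP2 and SLC3A1 were among the markers that fell with IL-1β in the limma fit described below. Of 4 epithelium markers 3 were tested, with control sums of 74.2 and 78.7 in the first pair and 43.3 and 38.0 in the second. Of these only EPCAM passed with IL-1β, falling by 0.98 on the log2 scale (SE 0.211, limma adjusted p = 0.0188). KRT8 and KRT18 did not pass, with differences of -0.38 and 0.16. Of the markers of leukocytes, endothelium and fibroblasts 7 of 12 were tested, and none passed with either treatment. The summed level of 3 fibroblast markers was 0.169 and 0.152 in the controls of the first pair against 6.52 and 6.51 in those of the second, and that of 3 leukocyte markers 0.663 and 0.410 against 2.55 and 2.25. On a control array only 1 to 2 of these fibroblast markers and 2 to 3 of the leukocyte markers were above background. The pairs of slides thus stood apart in these markers before treatment, and the part of the markers in the results was not tested. The defining markers PECAM1, VWF, CD3E and PDGFRB were among the genes that were not tested.

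IL-1β raised the mRNA of NFKBIA, NFKBIZ, NFKB1 and BCL3 over the 4 slides, and no member fell. NFKBIA rose 12.9-fold, NFKBIZ 6.75-fold, NFKB1 4.29-fold and BCL3 1.74-fold. Thus 1 subunit, 1 classical inhibitor and both nuclear IκB genes passed, and the other 6 genes did not. Of all genes tested 12.4% passed the same test, 4.52% higher and 7.91% lower. The test was limma with the slide as a block and a threshold of 0.05 on Benjamini-Hochberg adjusted p over 15717 genes. At an unadjusted p under 0.05 there were 7 members, beside 28.2% of all genes. The IL-1β array was above its control on 4 of 4 slides for 5 members (NFKB1, REL, NFKBIA, NFKBIZ and BCL3), beside 15% of all genes, and below it on 4 of 4 for none, beside 24.9%. The median difference was 1.15 over the 10 members and -0.11 over all genes. The calls rest on comparison within slides: in the limma fit without the slide block no member passed, and 8 genes in all did, against 1955. In that fit 4 members had an unadjusted p under 0.05, against 7, beside 1200 of all 15717 genes, against 4432. Within the scan day of the replicate 1 slides the IL-1β difference was 3.48 for NFKBIA, 2.79 for NFKBIZ, 2.06 for NFKB1 and 0.56 for BCL3, and within that of the replicate 2 slides 3.90, 2.72, 2.14 and 1.04. Each group held 1 array within a day, so the differences alone are given here. In RNA of whole cultures, more expressing cells and more RNA per cell cannot be told apart.

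**Figure D2:**
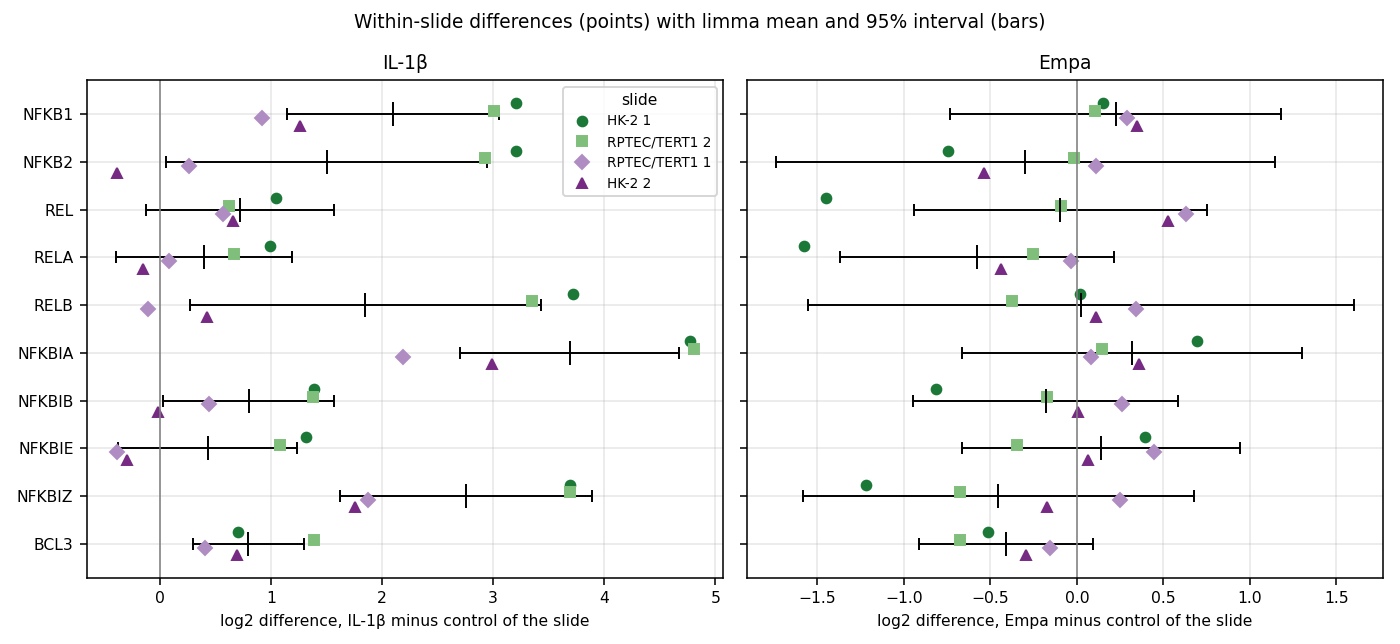
Log2 difference from the control array of the same slide with IL-1β (left) and Empa (right), 1 point per slide, with the limma mean and its 95% confidence interval as a bar. With IL-1β the points of the first pair (green) lie near each other and to the right of the second pair (purple) for NFKB1, NFKB2, RELA, RELB, NFKBIA, NFKBIB, NFKBIE and NFKBIZ.

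Among the subunits NFKB1, which encodes p105 and p50, was the gene that passed. Its control levels were 0.07, 0.22, 0.50 and -0.04. With IL-1β they were 3.27, 1.48, 1.43 and 2.97, and with Empa 0.22, 0.57, 0.79 and 0.07. Every IL-1β array lay above every control and Empa array. The IL-1β difference was 2.10 (SE 0.424, 95% CI 1.15 to 3.06, limma adjusted p = 0.0142) and was positive on 4 of 4 slides, from 0.92 to 3.21. It lost its call without HK-2 control replicate 1, RPTEC/TERT1 control replicate 2 or RPTEC/TERT1 IL-1β replicate 2 (1.93, 1.97 and 1.78, limma adjusted p = 0.0624, 0.0598 and 0.0534), and with all dim probes kept (limma adjusted p = 0.0549).

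NFKB2 encodes p100 and p52, the pair of the noncanonical pathway. The control arrays stood at -2.50, -1.49, -1.53 and -2.95. The IL-1β levels were 0.70, -1.87, -1.27 and -0.02, and the Empa levels -3.25, -2.03, -1.42 and -2.96. The groups overlapped, since the lowest IL-1β array lay below 2 of the control arrays. Within slides the IL-1β differences were 3.20 and 2.93 in the first pair, but -0.38 and 0.27 in the second. The mean of 1.50 (SE 0.640, 95% CI 0.06 to 2.95) did not pass (limma adjusted p = 0.162).

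RELB, the partner of p52, had the widest spread of IL-1β differences between slides. The control levels of 1.02, 2.46, 2.81 and 1.23 became 4.75, 2.89, 2.71 and 4.58 with IL-1β. The Empa arrays stood at 1.04, 2.57, 3.15 and 0.86. Differences with IL-1β were 3.72 and 3.35 in the first pair, whose control levels were the lower ones, and 0.43 and -0.10 in the second. The mean was 1.85 (SE 0.701, 95% CI 0.27 to 3.43, limma adjusted p = 0.121), and of all alternatives RELB passed in 1, the fit that omitted IL-1β replicate 1 of RPTEC/TERT1 (limma adjusted p = 0.0320).

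REL and RELA encode c-Rel and p65, subunits with a transactivation domain of their own. REL stood at -1.72, -2.12, -1.89 and -1.57 in the controls, at -0.67, -1.46, -1.31 and -0.95 with IL-1β and at -3.17, -1.59, -1.26 and -1.66 with Empa. All 4 IL-1β arrays lay above all 4 control arrays, by little. The differences were 1.05, 0.66, 0.57 and 0.62, and their mean of 0.73 (SE 0.376, 95% CI -0.12 to 1.57) did not pass (limma adjusted p = 0.244). Without the Empa array of HK-2 replicate 1, the lowest REL value of all, the same difference passed (limma adjusted p = 0.0247).

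RELA levels were -0.36, -0.57, -0.78 and -0.40 in the controls, 0.63, -0.72, -0.69 and 0.27 with IL-1β and -1.94, -1.01, -0.81 and -0.65 with Empa. Control and IL-1β arrays overlapped. The IL-1β difference was 0.40 (SE 0.352, 95% CI -0.39 to 1.19, limma adjusted p = 0.498). It was negative on 1 slide, HK-2 replicate 2, at -0.15. A second RELA probe, tested with every probe by itself, gave 0.58 (SE 0.321, limma adjusted p = 0.278) and was positive on that slide too, at 0.20.

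**Figure D3:**
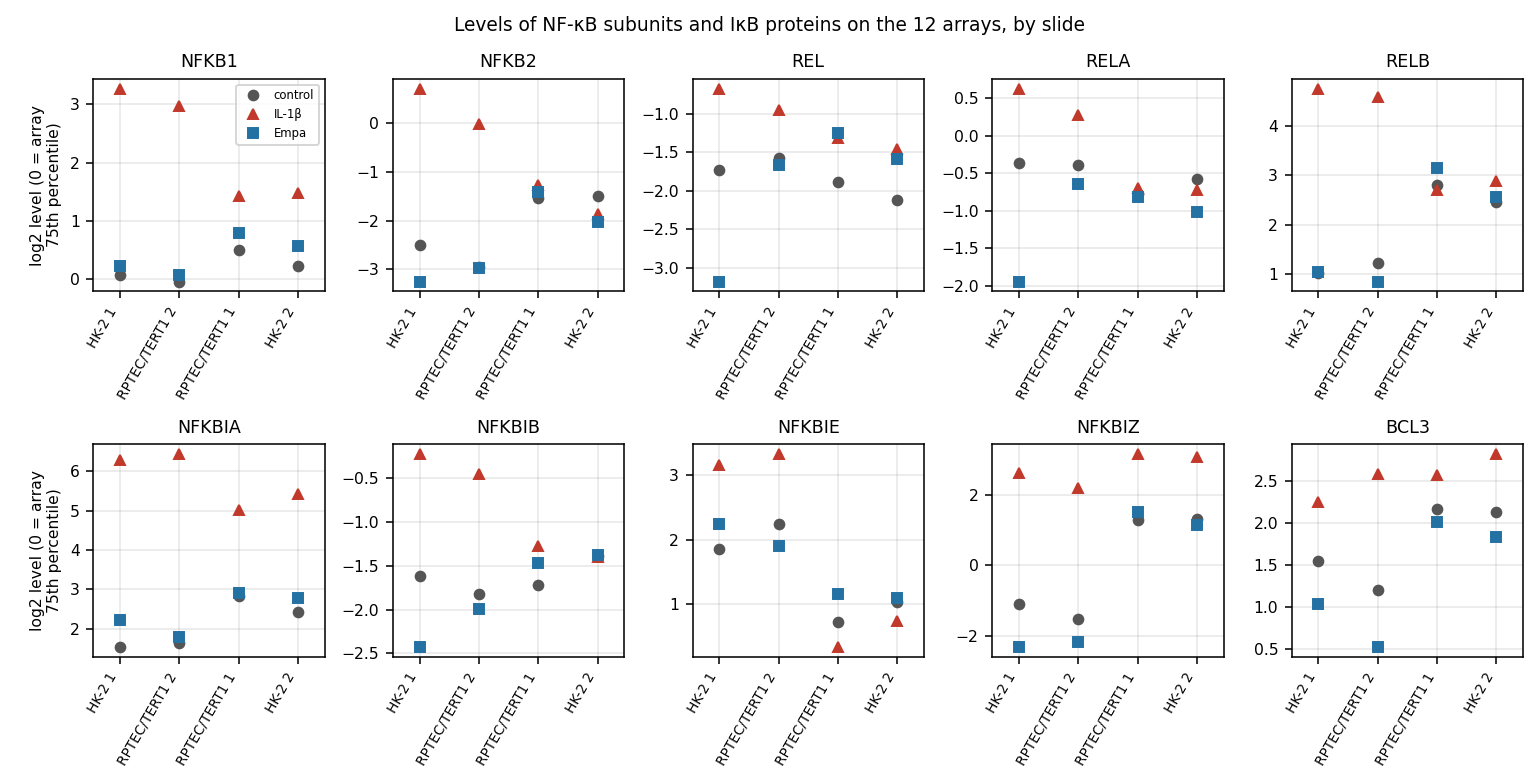
Log2 level of each of the 10 genes on the 12 arrays, by slide, with 0 at the 75th percentile of the array. Slides are ordered so that those whose arrays correlated most stand side by side, and the vertical scale differs between panels. The IL-1β arrays lie above the control of their slide on all 4 slides for NFKB1, REL, NFKBIA, NFKBIZ and BCL3.

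Of the 3 classical inhibitors NFKBIA passed and NFKBIB and NFKBIE did not. NFKBIA, which encodes IκBα, had the largest difference of the 10 genes. Control levels of 1.53, 2.43, 2.82 and 1.63 stood against 6.30, 5.42, 5.01 and 6.45 with IL-1β. With Empa they were 2.23, 2.78, 2.90 and 1.78. The lowest IL-1β array was above the highest control array by more than the range of the controls. The IL-1β difference was 3.69 (SE 0.437, 95% CI 2.71 to 4.67, limma adjusted p = 0.00152), or 12.9-fold with an interval of 6.52 to 25.5, and it ranked as number 125 of the 15717 genes by p. By slide it was 27.3-fold and 28.1-fold in the first pair, and 7.93-fold and 4.56-fold in the second. NFKBIA passed whichever of the 12 arrays was left out.

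NFKBIB, the gene of IκBβ, had control levels of -1.61, -1.38, -1.72 and -1.83, IL-1β levels of -0.22, -1.39, -1.28 and -0.45 and Empa levels of -2.43, -1.38, -1.46 and -2.00. The IL-1β array of HK-2 replicate 2 did not stand above its control, with a difference of -0.01, and the other 3 differences were 1.39, 0.44 and 1.38. Their mean was 0.80 (SE 0.340, 95% CI 0.03 to 1.57, limma adjusted p = 0.161). This probe is annotated to a non-coding transcript of the gene, and the second probe, to a coding one, gave 0.69 (SE 0.286, limma adjusted p = 0.152).

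NFKBIE encodes IκBε. Its levels were 1.85, 1.03, 0.71 and 2.25 in the controls, 3.17, 0.74, 0.33 and 3.33 with IL-1β, and 2.24, 1.09, 1.16 and 1.90 with Empa. IL-1β arrays were both the highest and the lowest of the 12. The differences were 1.32 and 1.09 in the first pair of slides and -0.29 and -0.38 in the second. The mean of 0.43 (SE 0.356, 95% CI -0.37 to 1.24) did not pass (limma adjusted p = 0.467).

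Both nuclear IκB genes passed. NFKBIZ encodes IκBζ, which acts in the nucleus on a subset of NF-κB target genes. In the control arrays it stood at -1.09, 1.31, 1.27 and -1.50. With IL-1β the levels were 2.60, 3.06, 3.15 and 2.19. The control arrays thus covered a range of 2.81 and the IL-1β arrays one of 0.96, and the groups did not overlap. The differences were 3.70, 1.75, 1.88 and 3.69, with a mean of 2.76 (SE 0.502, 95% CI 1.62 to 3.89, limma adjusted p = 0.00949). NFKBIZ passed in each of the 12 fits with 1 array left out. With Empa it stood at -2.31, 1.13, 1.52 and -2.18.

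BCL3 encodes Bcl-3, a nuclear IκB that binds dimers of p50 or p52. Control levels were 1.55, 2.13, 2.16 and 1.20, IL-1β levels 2.25, 2.83, 2.57 and 2.59, and Empa levels 1.04, 1.83, 2.01 and 0.53. The lowest IL-1β array lay just above the highest control. Differences of 0.70, 0.70, 0.41 and 1.39 had a mean of 0.80 (SE 0.223, 95% CI 0.30 to 1.30, limma adjusted p = 0.0470). This call was close to the threshold, and it was kept in 3 of the 12 fits with 1 array left out, those without HK-2 Empa replicate 1, RPTEC/TERT1 IL-1β replicate 1 or RPTEC/TERT1 Empa replicate 2. In all 12 the difference ran from 0.56 to 0.97 and the limma adjusted p from 0.0316 to 0.142. The call was also lost under quantile normalization (limma adjusted p = 0.0570) and under normexp with quantile normalization (limma adjusted p = 0.0534). It was lost too in the authors' deposited values (limma adjusted p = 0.0590) and with all dim probes kept (limma adjusted p = 0.0908). Without the slide block the limma adjusted p was 0.789.

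For 4 of the probes 10 spots were printed on each array, which shows how much of the spread lies between spots. The coefficient of variation over these spots had a median over arrays of 5.37% for NFKB1, 6.15% for NFKB2, 5.32% for NFKBIA and 3.78% for RELA, and the highest single value was 17.0%. In raw signal the NFKBIA spots of HK-2 control replicate 1 ran from 908 to 1243 units and those of HK-2 IL-1β replicate 1 from 31743 to 36173 units. The NFKB2 spots of the same arrays ran from 54.2 to 72.1 and from 660 to 737 units. Repeated spots share 1 RNA sample and measure hybridization and scanning, not the spread between cultures.

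**Figure D4:**
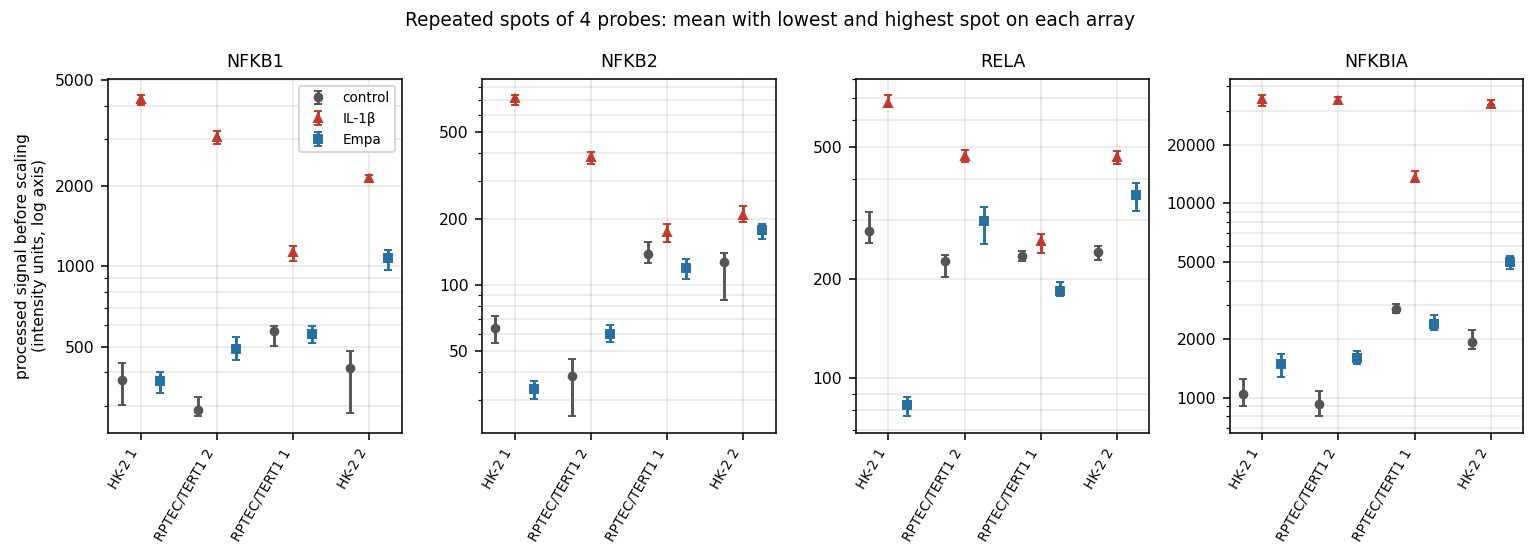
Processed signal before scaling of the 4 probes with 10 spots (log axis, intensity units) on each array, as the mean with the lowest and highest spot. For NFKBIA the spots of every IL-1β array lie above those of all control arrays, and for NFKB2 the IL-1β spots of the first pair of slides lie furthest from their controls.

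With Empa no member passed. Of all 15717 genes 1 did (0.00636%), and at an unadjusted p under 0.05 there was no member, beside 12% of all genes. The lowest adjusted p of the 10 in the limma fit belonged to BCL3. The median difference was -0.14 over the members and -0.02 over all genes. BCL3 was lower than its control on 4 of 4 slides, by differences of -0.51, -0.30, -0.16 and -0.68, with a mean of -0.41 (SE 0.223, 95% CI -0.91 to 0.09, limma adjusted p = 0.478). RELA was also lower on 4 of 4 slides, with a mean of -0.58 (SE 0.352, 95% CI -1.37 to 0.22, limma adjusted p = 0.515). Its differences were -1.58, -0.44, -0.03 and -0.25, and the second RELA probe was not lower on all slides, with 0.21 in RPTEC/TERT1 replicate 2. NFKB1 and NFKBIA were higher on 4 of 4 slides, by means of 0.22 (95% CI -0.73 to 1.18) and 0.32 (95% CI -0.67 to 1.30). Of all genes 13.9% were lower and 12.5% higher with Empa on 4 of 4 slides, beside 2 of the 10 members on either side.

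The intervals give the limits of the limma fit for Empa. That fit takes a single spread per gene from both treatments, so a gene has the same SE for IL-1β and Empa. The Empa intervals thus also carry the spread of the IL-1β differences between slides. For RELB the Empa differences by slide ran from -0.38 to 0.34. For BCL3 the interval ran from 0.531-fold to 1.07-fold, for RELA from 0.387-fold to 1.16-fold and for NFKBIA from 0.631-fold to 2.47-fold. For NFKB2, RELB and NFKBIZ it reached from 0.299-fold to 2.21-fold, from 0.340-fold to 3.04-fold and from 0.333-fold to 1.60-fold. The array of HK-2 Empa replicate 1 was the lowest of the 12 for NFKB2, REL, RELA, NFKBIB and NFKBIZ, and left out of the fit it turned the Empa mean of REL from -0.10 to 0.41, that of NFKB2 from -0.30 to 0.14 and that of NFKBIB from -0.18 to 0.13. The second NFKBIB probe was lower with Empa on 4 of 4 slides, by differences of -0.77, -0.75, -0.10 and -0.70, with a mean of -0.58 (SE 0.286, limma adjusted p = 0.455).

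The study looked for genes that IL-1β raises and Empa lowers. By sign alone, with the IL-1β array above and the Empa array below its control on 4 of 4 slides, 207 genes (1.32%) had this pattern, and BCL3 was the 1 member among them. Both sets of differences use the same 4 control arrays, so a control that is low or high by itself moves both. RELA missed the pattern through its IL-1β value in HK-2 replicate 2. By the sign of the mean over the arrays of each line label, a rule added after the values were seen, 1236 genes (7.86%) had the pattern, and the members among them were RELA, NFKBIZ and BCL3.

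Within the arrays of 1 line label no member passed in either direction with limma. For IL-1β 40 genes passed with the HK-2 label (0.255%) and 42 with the RPTEC/TERT1 label (0.267%), and 3 and 4 members had an unadjusted p under 0.05, beside 16.2% and 11.5% of all genes. The NFKBIA difference was 3.88 (SE 0.692, limma adjusted p = 0.0782) with the HK-2 label and 3.50 (SE 0.692, limma adjusted p = 0.109) with the RPTEC/TERT1 label. That of NFKBIZ was 2.73 (SE 0.793) and 2.79 (SE 0.793). For Empa no gene passed with either label, and no member had an unadjusted p under 0.05, beside 9.29% (HK-2 label) and 2.14% of all genes. The difference between line labels was tested for both treatments, and in limma neither a member nor any other gene passed, with no member and 1.74% (IL-1β) or 0.980% (Empa) of genes at an unadjusted p under 0.05. For NFKBIA the IL-1β effect with the RPTEC/TERT1 label minus that with the HK-2 label was -0.38 (95% CI -2.67 to 1.92), an interval of 0.157-fold to 3.78-fold. Since the arrays did not group by line label, values by label compare labels and may not compare cell lines.

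The rest of the pathway was described by lists of its other genes. In the arm from the IL-1 receptor to the IκB kinase 17 of 18 genes were tested, 3 rose and 1 fell with IL-1β, and the median difference was 0.25. IRAK2, a kinase of the receptor complex, rose by 3.53 (SE 0.568, limma adjusted p = 0.00553), from 1.58 to 5.35 over the slides. The receptor chains IL1RAP and IL1R1 rose by 1.55 (SE 0.184, limma adjusted p = 0.00154) and 1.24 (SE 0.263, limma adjusted p = 0.0176), IL1R1 being above background on 11 of the 12 arrays. SIGIRR, a receptor that dampens IL-1 signalling, fell by 0.94 on the log2 scale (SE 0.143, limma adjusted p = 0.00431). The kinase subunit genes CHUK, IKBKB and IKBKG did not pass, at 0.28, 0.28 and 0.20.

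In the noncanonical arm 9 of 10 genes were tested, 3 rose and 1 fell, with a median of 0.55. BIRC3, a ubiquitin ligase, rose by 3.69 (SE 0.831, limma adjusted p = 0.0222), the receptor CD40 by 2.97 (SE 0.634, limma adjusted p = 0.0177) and TRAF3, an adaptor of the complex that degrades NIK, by 1.88 (SE 0.287, limma adjusted p = 0.00442). MAP3K14, the gene of NIK itself, the kinase that acts on p100 through CHUK, fell by 0.97 on the log2 scale (SE 0.204, limma adjusted p = 0.0168). Among 8 of 9 tested genes of the ligase that marks phosphorylated IκB for degradation none passed in limma, and the median was 0.19. Of 12 other IκB-related genes 2 rose, NFKBID, a further nuclear IκB gene, by 1.50 (SE 0.405, limma adjusted p = 0.0422, above background on 11 arrays) and NKIRAS1, which encodes a Ras-like protein that binds IκB, by 0.96 (SE 0.254, limma adjusted p = 0.0389), with a median of -0.20. Beside these lists 4.52% of all genes rose and 7.91% fell.

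Of 12 NF-κB target genes 10 were tested and 8 passed, all higher with IL-1β. Of the 10 genes 5 were above background on all 12 arrays, and the others could enter the test through the arrays where they were high, so the count of 8 is a description and supports nothing. The chemokine gene CXCL2, above background on all 12 arrays, differed by 7.59 (SE 0.935, limma adjusted p = 0.00185). CXCL8, another chemokine gene, was above background on 11 arrays and differed by 7.02 (SE 1.10, limma adjusted p = 0.00490). CCL20 and LCN2 were not well above background in the control and Empa arrays of the first pair. On the second pair, where they were measured throughout, the IL-1β differences were 7.24 and 6.95 for CCL20 and 2.69 and 2.90 for LCN2. TNFAIP3 and TNFAIP2 were not tested because a spot of each was marked as an outlier on at least 1 array. No gene of these 5 lists passed with Empa in limma.

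The 8 within-slide differences of each gene, 4 with IL-1β and 4 with Empa, also describe which members moved alike. Each set of 8 shares 4 control arrays, and the points are not independent. Among members NFKB1 was closest to NFKBIA (r = 0.97), RELB (0.96) and NFKBIZ (0.95), and NFKBIE was least like REL (0.20). Over 12607 genes the ones most like NFKBIA were CXCL2, IQCD and CTPS1 (r = 0.996, 0.994 and 0.994), those most like NFKBIZ were SLC11A2, IER3 and HDGF (0.99 for each) and those most like NFKB2 were MPZL1, the transcript ENST00000417653 and GPR39 (0.99 for each). CXCL2 differed by 4.69 to 10.2 with IL-1β over the slides and NFKBIA by 2.19 to 4.81. As the top of a search over 12607 genes with 8 points each, these r values are high partly through the selection, and none was tested.

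**Figure D5:**
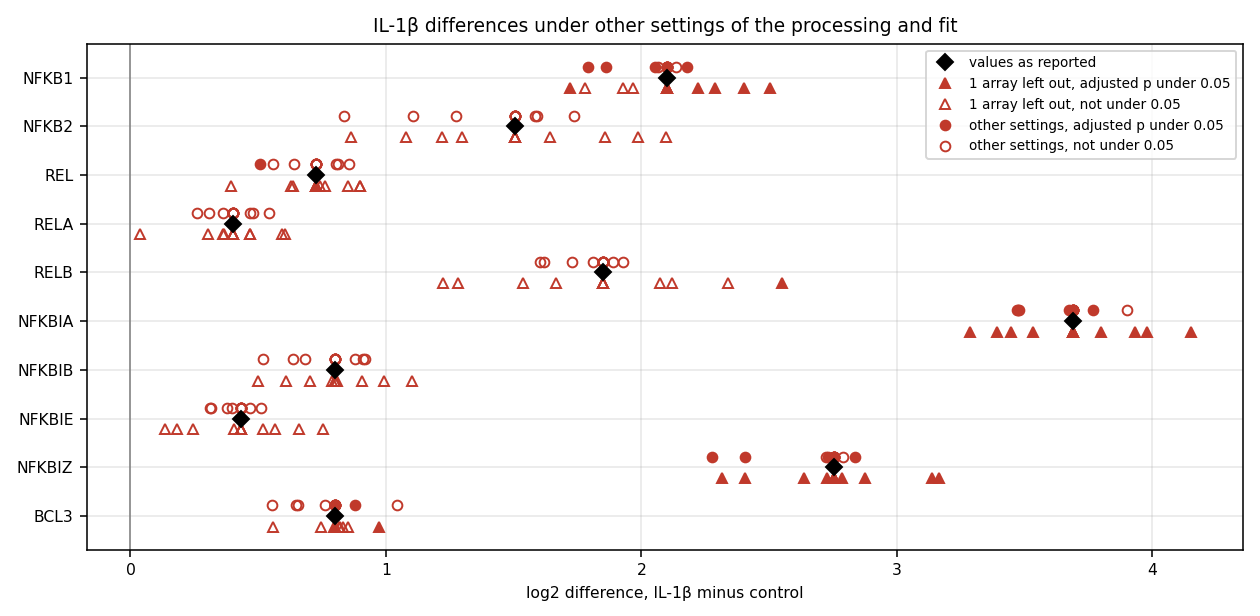
Log2 difference with IL-1β for each gene as reported (black diamonds) and under other settings of scaling, filtering and fit (circles) or with 1 array left out (triangles). Filled symbols have an adjusted p under 0.05. All values of all 10 genes lie above 0, and NFKBIA and NFKBIZ are filled for all 12 arrays left out.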

How the data were processed

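Total RNA of each culture was labelled with Cy3, hybridized to a one-colour Agilent 4x44K v2 human array and read with Agilent Feature Extraction. The file headers give version 9.5.3.1 for its flagging of outliers. The deposited intensity values were taken as background-subtracted processed signals, with no normalization between arrays. A table of log2 values that the authors deposited, named as quantile-normalized, served as an alternative. Here control and outlier spots were left out, spots of a probe were averaged, and signals were divided by the 75th percentile over all spots of the array that are not controls, floored at 1 unit and put on the log2 scale. On each array 53.5% to 63.5% of probes were well above background. A gene was tested, through its brightest probe, if both arrays of a group were well above background. The number of arrays limits the precision.

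The fit was limma 3.58.1 in R 4.3.3 over all 12 arrays, with the slide as a block and 1 effect per treatment, and again with an effect per line label. Adjusted p values are Benjamini-Hochberg over all genes tested. The slide block was used because treatments were compared on the same slide, each slide holding 1 array per treatment of 1 line label and replicate number. By the array names the order on every slide was control, IL-1β and Empa. The block cannot tell an effect of that order from an effect of treatment. Deviations from group means correlated within slides at r = 0.591 to 0.775. With 2 arrays a group the deviations of replicate 2 mirror those of replicate 1. They also hold the difference between the pairs of slides, so these r values cannot show an effect of the slide itself. This choice was made with earlier counts of these data known (8 genes passed without a block and 1955 with it). The percentile was first taken over probe means and, after members' values had been seen, over all spots, as Feature Extraction itself does. The first form is given as an alternative, and the same 4 genes pass under both. The members and lists were also chosen with earlier results of these data known. Named are all 10 members, with up to 4 genes past the threshold in each pathway list, by size, the IκB kinase genes beside them, and for NFKBIA, NFKBIZ and NFKB2 the 3 genes with the highest r. The fit was run on simulated data with independent errors and the same change on every slide. The IL-1β differences here varied between slides, so that run does not show how the fit handles them. Probe positions are on hg19 and are not mixed with the RefSeq promoters of GRCh38.p14. Groups were taken from sample titles, since the source field names HK-2 for every sample. Protein sequences were not used here.

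Alternatives were the fit without the block, quantile normalization, normexp (offset 50) with quantile normalization, the authors' table, other filters, a floor of 5 units, outlier spots kept, every probe by itself, each array left out, each scan day alone and an unpaired t-test, the test that the study's methods state for PCR and ELISA. Figures were drawn with matplotlib 3.10.9. Some genes of the marker lists are not reported here by name.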

Additional observations from a re-analysis of the deposited data

How the results depend on the processing

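All IL-1β differences of the 10 members kept their sign under every alternative run. With 1 array left out, 2 to 5 members and 790 to 2963 genes passed with IL-1β, and the lowest counts of members came without HK-2 control replicate 1, RPTEC/TERT1 control replicate 2 or RPTEC/TERT1 IL-1β replicate 2, where NFKBIA and NFKBIZ remained. The gene count moved by over 1.5 times without any of those 3, without HK-2 IL-1β replicate 1, HK-2 control replicate 2 or RPTEC/TERT1 control replicate 1 (1052, 1033 and 1268 genes), and without HK-2 Empa replicate 1 (2963). No replicate block left 0 members and 8 genes with IL-1β in limma, against 4 and 1955, and 0 genes with Empa. Scan day 1 or 2 alone left 0 members and 0 genes. By an unpaired t-test on the arrays, which the study's methods state for PCR and ELISA only, 7 members and 2015 genes had an unadjusted p under the threshold with IL-1β, and 0 members and 46 genes passed after Benjamini-Hochberg, with 2 genes for Empa, where 625 genes and 0 members passed unadjusted. Without a filter on dim probes 2 members and 1391 genes passed, with 25622 genes tested. There 4 members, against 7, and 5464 genes had an unadjusted p under 0.05 in limma. Quantile normalization left 3 members and 1862 genes, and normexp with quantile normalization 3 members and 1969 genes. The authors' values left 4 members, with REL in place of BCL3, and 1928 genes. The genes past the threshold with Empa were 0 under normexp, the authors' table, no filter, the filter on all 12 arrays, the floor of 5 units and each scan day, and 0 to 1 with an array left out. By the mean of each line label 3 members and 1236 genes, or 1121 in the authors' table, were raised by IL-1β and lowered by Empa in sign, against 1 and 207 by slide. With the filter on all 12 arrays 1 member passed within the HK-2 label, and 0 to 1 did within either label with an array left out.

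Signs turned only for Empa differences, none of which passed. RELB went from 0.02 to -0.027 under normexp, -0.013 in the authors' table and -0.13 on scan day 2. REL went from -0.10 to 0.14 in the authors' table and 0.22 on scan day 2, and NFKBIE from 0.14 to -0.14 on scan day 2. With an array left out RELB ran from -0.41 to 0.41, REL from -0.36 to 0.41, NFKBIE from -0.10 to 0.41, NFKB2 from -0.64 to 0.14 and NFKBIB from -0.39 to 0.13. The causes were not tested. With 2 arrays a group and a spread taken from both treatments together, small differences were not detectable.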
